A study of Mus musculus with 2 samples.

Results

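Islands of Brg1 enrichment with their midpoint inside protein-coding genes under 100 kb long, away from gene ends, made up 1039 of the 5727 islands mapped in mouse medulloblastoma, which is 18.1% (95% Wilson interval 17.2 to 19.2). An island was counted here when its midpoint fell inside at least 1 RefSeq protein-coding gene, every such gene was under 100 kb long, and the midpoint was over 1 kb from every end of a protein-coding gene and of a long non-coding RNA gene. The 1039 islands had 862 host genes, since 1027 islands lay in 1 gene and 12 in a pair of overlapping genes. They held 107522 sequenced reads and covered 2.86 Mb. The rule concerns midpoints, and 785 of the 1039 lay with their whole length inside a gene and over 1 kb from every protein-coding gene end.

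The tumours were primary medulloblastomas that arose spontaneously in mice carrying CAG-CreER and Rosa26-SmoM2. SmoM2 is an activated form of Smoothened, the membrane protein that turns on Hedgehog signalling, and CreER is a recombinase that tamoxifen can activate, here under the broadly active CAG promoter, so the transgene was not limited by its promoter to one cell type. Dissociated tumour cells were crosslinked and sonicated, and chromatin was precipitated with the J1 antibody, which recognises both Brg1 and Brm, so that an island can come from either protein. There was 1 ChIP library and 1 input library. The input library was not analysed here, and the sources used here do not give the number of mice or tumours behind a library, so no value below has an error between animals. All intervals cover counting error only.

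Brg1 (gene Smarca4) and Brm (gene Smarca2) are the alternative ATPases of the BAF complex, which uses ATP to slide or evict nucleosomes. BAF complexes are found at promoters and at enhancers, and many enhancers of mammalian genes lie in introns. Many genes also have alternative promoters, so that a shorter transcript starts inside the span of the longest one, and an island inside a gene may therefore lie over a start. Promoters rich in the dinucleotide CpG are common at widely used and developmental genes. An island list gives binding and not expression, and the absence of an island does not establish the absence of Brg1.

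Distances along a gene are counted from the edge of its RefSeq span, here called the outermost start, which need not be a listed start. Of the 825 islands whose single host gene had a known strand, 148 (17.9%, 15.5 to 20.7) covered a listed start that lay over 1 kb inside the gene. The windows around 5 such starts are printed because their genes belong to pathways of this tumour or its cell of origin and because they span the range of CpG content. Each runs from 250 bases before the start to 50 bases after it, 5′ to 3′ on the gene's own strand, as listed by RefSeq on GRCm38.p6, and capitals mark every CpG. They were chosen after their values were seen. Ptch1 encodes the Hedgehog receptor, Axin2 a scaffold of the complex that degrades beta-catenin, Bcl11a a zinc finger subunit of the BAF complex, Nfix a nuclear factor I transcription factor, and Zic4 a zinc finger factor of the cerebellar granule lineage.
Ptch1, chr13:63565686-63565985, minus strand: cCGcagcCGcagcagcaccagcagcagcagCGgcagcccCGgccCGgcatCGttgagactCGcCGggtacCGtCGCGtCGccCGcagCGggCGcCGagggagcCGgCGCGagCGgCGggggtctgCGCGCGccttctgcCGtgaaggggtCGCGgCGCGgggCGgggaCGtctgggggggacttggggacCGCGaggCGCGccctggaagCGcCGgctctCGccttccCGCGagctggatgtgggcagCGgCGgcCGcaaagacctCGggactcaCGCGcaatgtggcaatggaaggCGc
Axin2, chr11:108920099-108920398, plus strand: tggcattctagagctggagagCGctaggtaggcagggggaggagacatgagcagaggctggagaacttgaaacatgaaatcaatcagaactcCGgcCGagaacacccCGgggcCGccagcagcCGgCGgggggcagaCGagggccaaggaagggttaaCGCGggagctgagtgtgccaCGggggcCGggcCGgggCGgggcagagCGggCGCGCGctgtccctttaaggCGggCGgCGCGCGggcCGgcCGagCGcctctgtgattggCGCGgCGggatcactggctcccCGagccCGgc
Bcl11a, chr11:24080445-24080744, plus strand: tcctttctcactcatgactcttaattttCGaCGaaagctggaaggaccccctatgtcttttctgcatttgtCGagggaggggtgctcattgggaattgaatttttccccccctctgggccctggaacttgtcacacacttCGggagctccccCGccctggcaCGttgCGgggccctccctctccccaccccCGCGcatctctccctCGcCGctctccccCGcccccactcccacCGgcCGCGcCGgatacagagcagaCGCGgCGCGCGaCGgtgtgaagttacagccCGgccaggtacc
Nfix, chr8:84780033-84780332, minus strand: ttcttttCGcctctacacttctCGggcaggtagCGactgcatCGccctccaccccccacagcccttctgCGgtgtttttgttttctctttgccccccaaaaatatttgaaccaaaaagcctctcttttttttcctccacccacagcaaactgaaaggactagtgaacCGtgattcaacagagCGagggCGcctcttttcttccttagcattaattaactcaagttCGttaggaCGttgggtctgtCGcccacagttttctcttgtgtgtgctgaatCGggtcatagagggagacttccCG
Zic4, chr9:91368722-91369021, plus strand: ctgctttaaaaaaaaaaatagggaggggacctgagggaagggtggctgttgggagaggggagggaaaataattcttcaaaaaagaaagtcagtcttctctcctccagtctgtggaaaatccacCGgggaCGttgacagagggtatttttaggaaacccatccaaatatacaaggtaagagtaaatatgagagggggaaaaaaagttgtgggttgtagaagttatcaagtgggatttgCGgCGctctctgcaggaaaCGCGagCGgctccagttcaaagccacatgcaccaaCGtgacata

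The Ptch1 start, the only one listed for that gene, lay 7725 bp inside it, under an island of 159 reads. Its window had 47 CpG and 76.3% G and C. The Axin2 start lay 2521 bp inside the gene, under an island of 138 reads, with 31 CpG in the window. The Bcl11a start lay 4131 bp inside, under 126 reads, with 23 CpG. Nfix and Zic4 had the fewest CpG of the 5 windows. The Nfix start lay 21156 bp inside the gene, with no listed start nearer the gene's edge. It was under an island of 89 reads, and its window had 13 CpG. The Zic4 start, the only one listed for that gene, lay 3341 bp inside, under 85 reads, with 8 CpG.

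Over all such starts, the windows inside islands held more CpG than the windows of other inner starts. The eligible interior, meaning all bases where a midpoint would meet the rule, held 2574 listed starts over 1 kb inside their gene, and 191 of them, in 139 genes, lay inside an island, which is 7.42%, while the islands covered 0.674% of the eligible bases. The 191 windows inside islands had a median of 19 CpG (quartiles 9 to 28) and 61% G and C (54 to 68), against 7 CpG (3 to 18) and 54.3% (48 to 61.3) in the other 2383. Gene starts within 1 kb of the outermost start, 13195 in number, had a median of 16 CpG (5 to 26) and 58% G and C. The middle ranges overlapped, windows of one gene can share most of their bases, and the difference was not tested.

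6 short motifs were looked for on both strands of these windows. The GC box GGGCGG, the letters bound by Sp and KLF factors, was in 64.9% of the windows inside islands, against 35.7% of those of the other inner starts, 52.2% of first starts and 35.7% of all 32851 listed windows. The cyclic AMP response element TGACGTCA was in 8 of the 191 windows (4.19%, 2.14 to 8.05), against 1.30% (0.918 to 1.84) at other inner starts 2.61% at first starts and 1.79% of all listed windows. Windows of one gene share a match in this count, so the interval is too narrow; by gene, 3.60% of the 139 genes had the element, against 1.56% of the 1917 genes of the other inner starts. Both of these motifs contain CpG, so their shares move with the base composition given above, and the part of composition was not tested. The E-box CAGCTG of basic helix-loop-helix factors was in 18.3% of the windows inside islands, against 18.1% at other inner starts and 16.3% of all windows. The nuclear factor I half-site TTGGCA was in 15.7% against 14.2% at other inner starts and 14.1% of all windows. The AP-1 site TGANTCA was in 4.19% (2.14 to 8.05) against 8.06% (7.03 to 9.22) at other inner starts, 6.50% at first starts and 7.81% of all windows. By gene it was in 5.76% of the 139 genes, against 9.49% of the 1917. The part of base composition was not tested for the AP-1 site either. The Gli site GACCACCCA was in 1 window inside an island, against 0.210% of other inner starts and 0.253% of all windows. No motif of the set contains another. A match describes the letters in the window and not a bound site.

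The 8 windows with the cyclic AMP response element belonged to 5 genes, and the 40 bases around each match are printed because they are the few places where this complete palindrome lay at an inner start under an island. Capitals mark the motif, and the strand is that of the gene on GRCm38.p6. Lmbrd1 encodes a lysosomal membrane protein of cobalamin export, Celf3 a splicing factor of neurons, Aptx a DNA end-processing enzyme, Tiprl a regulator of phosphatases, and Clcn4 an endosomal chloride transporter.
Lmbrd1, chr1:24678530-24678569, plus strand: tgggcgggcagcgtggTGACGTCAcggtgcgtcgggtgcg
Tiprl, chr1:165237098-165237137, minus strand: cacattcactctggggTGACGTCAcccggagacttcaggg
Celf3, chr3:94484203-94484242, plus strand: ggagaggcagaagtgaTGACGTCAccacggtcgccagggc
Aptx, chr4:40703188-40703227, minus strand: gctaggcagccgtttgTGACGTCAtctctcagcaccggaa
Clcn4, chr7:7299610-7299649, minus strand: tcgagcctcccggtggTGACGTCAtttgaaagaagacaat

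The islands were 123 reads at Clcn4, 93 at Celf3, 69 at Aptx, 61 at Lmbrd1 and 43 at Tiprl. The start lay 1359 bp inside Clcn4 and 1552 bp inside Lmbrd1. It was much farther in at Aptx, at 18473 bp. The other starts lay between those distances at Celf3 and beyond them at Tiprl.

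Within their genes, islands lay on the start side of the midpoint more often than on the end side. Of the 825 islands with a known strand, in 673 host genes, 496 (60.1%, 56.7 to 63.4) lay nearer the start than the end, on 50.03% of the eligible bases. That is 3.33 islands per Mb (3.04 to 3.63) on the start side and 2.21 per Mb (1.98 to 2.46) on the end side, intervals that do not overlap. The density was highest next to the start. Between 1 and 2 kb from the outermost start there were 138 islands, or 11.7 per Mb (9.82 to 13.8), between 2 and 3 kb there were 4.72 per Mb, and between 3 and 5 kb there were 2.84 per Mb. From 5 kb onward the rate ranged over bins from 1.86 per Mb at 5 to 10 kb to 2.81 per Mb at 60 to 100 kb. Between 1 and 2 kb from the gene's end it was 2.44 per Mb.

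**Figure D1:**
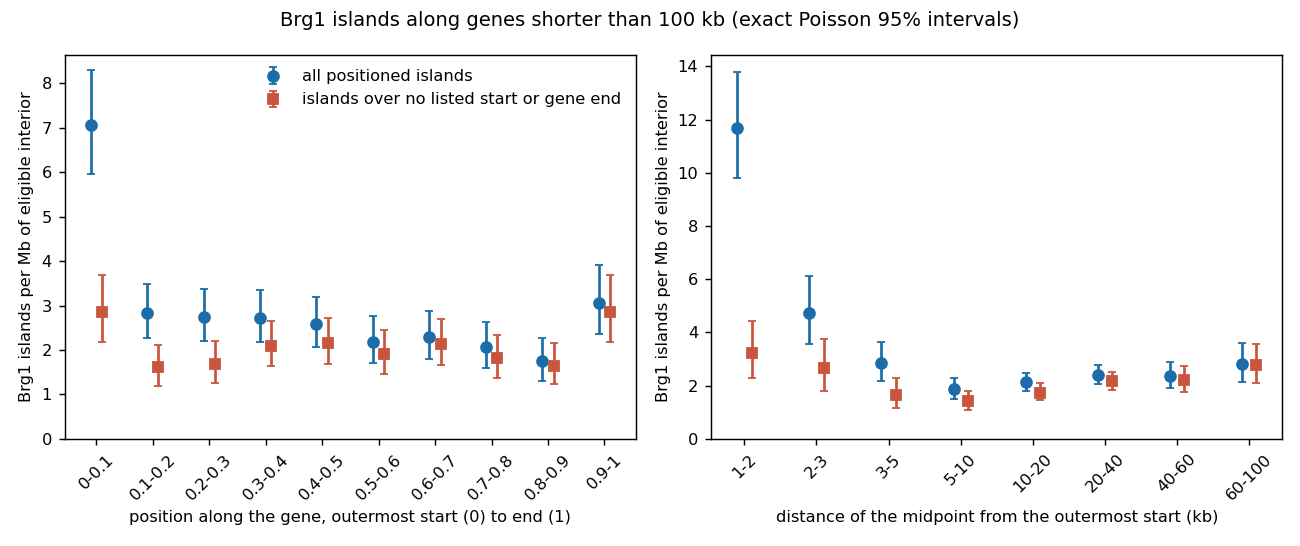
Brg1 islands along their host genes, as islands per Mb of eligible interior with exact Poisson 95% intervals. They are shown in 10 equal parts of the gene from start to end and by distance from the outermost start in kb. Blue circles are all positioned islands. Red squares, labelled as over no listed start or gene end, are islands over neither the outermost start, the gene's end nor a listed start over 1 kb inside. The first of the 10 parts had 7.06 islands per Mb, the last 3.06 and the others 1.74 to 2.83. The islands of the red squares had 2.86 per Mb in the first part and 2.87 in the last.

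Islands over a start made up most of this skew. 90 islands (10.9%) reached over the outermost start although their midpoints lay over 1 kb inside, 148 covered an inner start, and 219 (26.5%, 23.6 to 29.7) did one or both. The other 602 islands touched neither the outermost start nor the gene's end, nor a listed start over 1 kb inside the gene. Some of them covered a listed start within 1 kb of a gene edge. The 602 fell 302 on the start side and 300 on the end side, at 2.03 islands per Mb on the start side and 2.01 on the end side. By distance from the outermost start, their rate was 3.22 per Mb (2.28 to 4.42) between 1 and 2 kb, was lowest between 5 and 10 kb, at 1.41 per Mb (1.09 to 1.79), and was 2.77 per Mb (2.11 to 3.56) between 60 and 100 kb, an interval that overlaps that of the first bin. An island near the gene's start has more chance to reach over it, so leaving these islands out removes islands near the start in particular. Without islands over any listed start, also those within 1 kb of a gene edge, 48.5% (44.5 to 52.5) lay on the start side. The islands over the outermost start were also wide, with a median of 3800 bp and 102 reads. Islands over an inner start had a median of 2800 bp and 82 reads, and the 602 others 2200 bp and 68 reads. Reads rose with width in all 3 classes of island that are compared by width, so reads of groups of unequal width are not compared by test.

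Compared by class, islands inside shorter genes were about as strong as the rest. Their median was 72 reads (quartiles 58 to 92) over 2400 bp (1800 to 3200), against 70 reads (57 to 87) over 2400 bp (1800 to 3000) for the 1407 islands inside genes of 100 kb or more. The 1415 islands with a midpoint at a gene end had 67 reads (57 to 83) over 2200 bp. At equal width the classes were close: between 2200 and 2600 bp wide, the medians were 72 reads inside shorter genes, 70 inside long genes and 70 at gene ends. Among islands at least 3800 bp wide, the medians were 131 reads inside shorter genes, 122 inside long genes and 121 at gene ends. The median density per 200 bp was 6.18 reads inside shorter genes, 6.17 inside long genes and 6.2 at gene ends. These islands are not replicates and no test was made.

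Per base of the interior, shorter genes had a somewhat higher density of islands than long genes. The rate was 2.77 islands per Mb (2.60 to 2.94) over 376 Mb of eligible interior, against 2.34 per Mb (2.22 to 2.47) over 600.3 Mb inside genes of 100 kb or more. Over 5 kb from gene ends, the rate in shorter genes was 2.21 per Mb (2.03 to 2.40), and the rate in long genes was not recomputed. Autosomes and the X chromosome differed more. The 19 autosomes together held 1037 islands at 2.88 per Mb, with single autosomes between 1.68 and 4.02, and the X chromosome held 2 islands at 0.138 per Mb (0.0167 to 0.498) over 14.5 Mb. The islands on X lay in Apool and Cldn2.

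Of the 16597 genes that could have held such an island, 5.19% did, and the share grew with gene length. It was 1.65% (85 of 5164) for genes of 2 to 10 kb, 3.43% (181 of 5270) for genes of 10 to 25 kb, 7.14% (262 of 3668) for 25 to 50 kb and 13.4% (334 of 2495) for 50 to 100 kb. Longer genes offer more bases, and per Mb the order did not follow length. Genes of 2 to 10 kb had 4.84 islands per Mb (lower limit 3.86), and the longer bins 2.60, 2.68 and 2.67 per Mb. All bases of genes of 2 to 10 kb lie near an end. Over all lengths the rate was 11.7 per Mb between 1 and 2 kb from the outermost start. The part of this position in the higher rate was not tested. Host genes had a median length of 39569.5 bp, against 16856 bp for the genes without such an island.

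**Figure D2:**
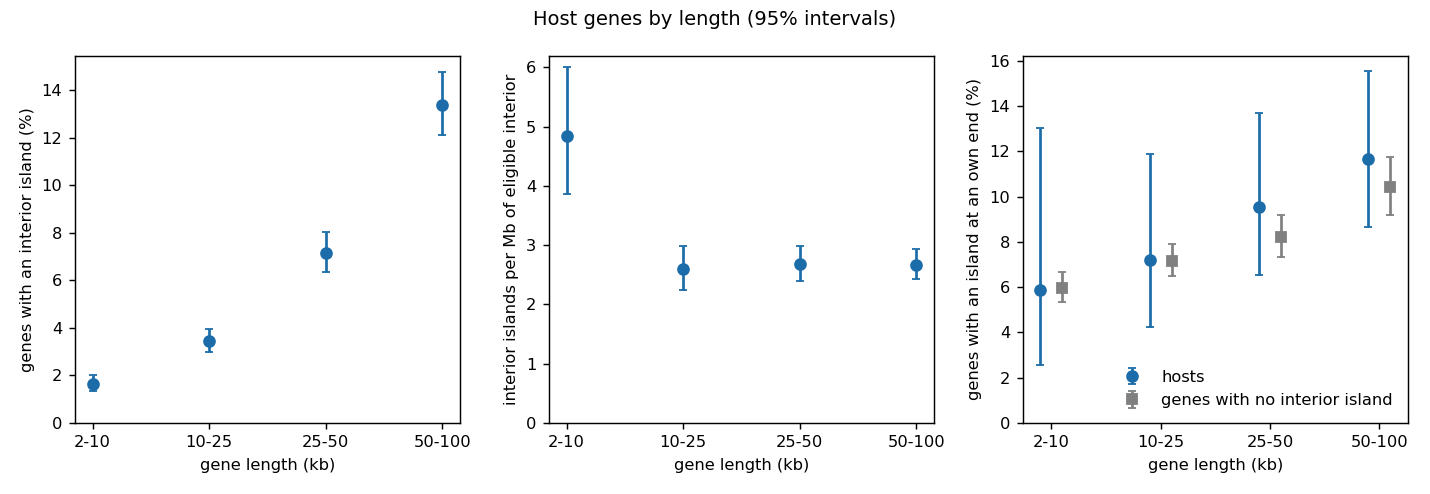
Share of genes with an interior island, in percent with Wilson 95% intervals, and islands per Mb of eligible interior with exact Poisson 95% intervals, by length of the gene in kb. The right panel gives the share of genes with an island midpoint within 1 kb of an own end, with Wilson intervals. Blue circles are hosts and grey squares are genes with no interior island. The share rises from bin to bin while the rate is highest in the bin of 2 to 10 kb, where it is 4.84 per Mb.

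Counted by midpoint, host genes had an island within 1 kb of one of their own ends at about the frequency of other genes. 82 of 862 hosts (9.51%, 7.73 to 11.7) also had an island with its midpoint within 1 kb of an end, against 1172 of 15735 genes without an interior island (7.45%, 7.05 to 7.87), and 7.56% of all eligible genes. At like length the shares were 5.88% in hosts and 5.97% in other genes at 2 to 10 kb, 7.18% and 7.15% at 10 to 25 kb, 9.54% and 8.22% at 25 to 50 kb, and 11.7% and 10.4% at 50 to 100 kb. The intervals of each pair overlapped. Most hosts had no island midpoint within 1 kb of either of their own ends. Interior islands that reached over an end were not counted as end islands here. Among the positioned islands, 90 reached over the outermost start and 8 over the gene's end.

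Most hosts held a single island. 728 hosts had 1, 101 had 2, 20 had 3, 9 had 4, 2 had 5, and Nfix and Map3k1 had 7 and 8. Hosts with 2 or more numbered 134 (15.5%). Islands inside shorter genes were also near others: 389 (37.4%, 34.5 to 40.4) had another island within 20 kb, against 31.6% (29.2 to 34.0) inside long genes, 18.9% (16.9 to 21.0) at gene ends and 28.3% over all other islands. For 283 of the 389, the neighbour lay in the same gene, and for 109 a neighbour lay at a gene end.

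Map3k1, a kinase that acts upstream of JNK, had the most islands of all hosts. Its 8 islands held 1209 reads and covered 40 kb of the 71.8 kb gene, which is 55.7%. Counted from the start, their midpoints lay at 10.3, 18.4, 25.4, 32.2, 40.3, 49.4, 54.4 and 68.2 kb, with 248, 231, 60, 230, 166, 63, 94 and 117 reads. The 4 strongest were the islands at 10.3, 18.4, 32.2 and 40.3 kb. The island at 10.3 kb covered the only listed start of the gene, at 9.28 kb. Nfix had 7 islands with 628 reads over 96.5 kb. The strongest Nfix island lay 71.3 kb from the start with 170 reads (145 to 198), and the others held 57 to 102 reads.

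Ptch1, the receptor that restrains Smoothened and is itself a target of the pathway, had 5 islands with 461 reads over 65.1 kb. The island 5.67 kb from the start held 159 reads (135 to 186), those at 17.1 and 20.5 kb held 65 and 67, and those at 32.7 and 48.1 kb held 85 each. The first had the most reads but was also the widest, at 5800 bp against 1800 to 3000 bp for the others. Its density of 5.48 reads per 200 bp was the lowest of the 5, the others having 5.67 to 7.44. Rai1, a nuclear protein that regulates transcription, had 5 islands with 483 reads. Its first lay 11.5 kb from the start with 119 reads and the other 4 from 60.1 kb on, with 75 to 111. Zic4, a short gene of 23.7 kb, had 4 islands over 56.5% of its length. The strongest, 10.2 kb from the start, held 171 reads (146 to 199), against 45 to 85 in the other 3.

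Other hosts with 4 islands included Klf13, a KLF transcription factor, Cplx2, a regulator of synaptic vesicle fusion, Adgrg1, an adhesion receptor, and Ppp2r2c, a phosphatase regulatory subunit. The Klf13 islands held 398 reads in sum, with 147 in the one that reached over the outermost start. Adgrg1 was the most compact, with 4 islands between 7.94 and 20.2 kb from the start and 64 to 91 reads. Ccdc33 and Stra6 overlap, and they share their 4 islands. Rassf3 and Fbxw8 also had 4 each, with 441 reads in sum in Rassf3 and 331 in Fbxw8, and neither was placed by strand.

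**Figure D3:**
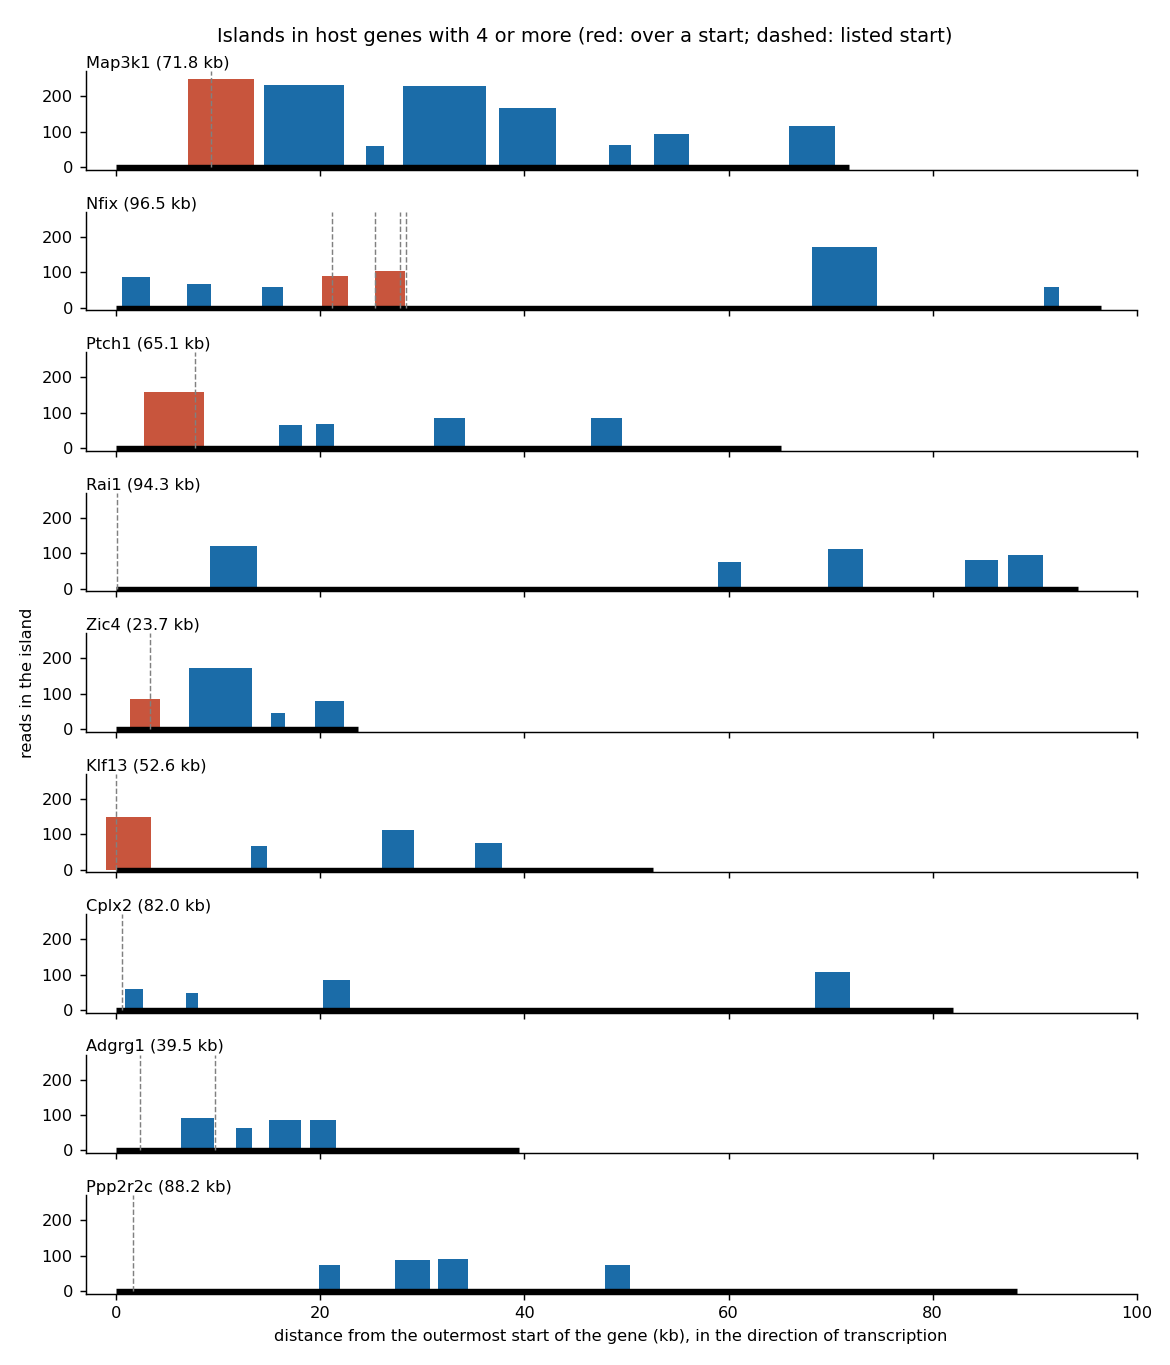
Islands along the host genes with 4 or more islands of known strand and a single host, drawn to scale in kb from the outermost start of each gene (black line), with the height of a bar giving the reads of the island, red bars covering a listed start, blue bars none, and dashed lines the listed starts. Map3k1 and Zic4 are covered for 55.7% and 56.5% of their length, while Ptch1 has its strongest island 5.67 kb from the start.

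The islands with the most reads stood apart from the rest in width or density. Sfi1, a centrosome protein, had an island of 78400 bp with 20753 reads, at 52.9 reads per 200 bp. That island was wider than its 71.5 kb gene. An island shared by Sp110 and Sp140 held 1519 reads, one of 4930467E23Rik 762 and one of Sp140 alone 717. Sp140 and Sp110 encode nuclear body proteins. Apool, on the X chromosome, and E030030I06Rik had narrow islands of 1400 and 1000 bp with 286 and 276 reads, or 40.9 and 55.2 reads per 200 bp. With Sfi1 and Sp140 these were the 4 islands above 18.8 reads per 200 bp, which is 3 times the median of the list, and they held 22032 reads, or 20.5% of all reads in these islands. Neither the input library nor repeats were analysed, so whether reads also pile up there without Brg1 was not tested.

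The other 9 of the 15 islands with the most reads lay below that density, between 5.19 reads per 200 bp at Slc29a1 and 11.3 at Kdm6b, with 9.33 at Arrdc3. Rhof had 340 reads (305 to 378) over 10800 bp, and its island reached over the gene's start. Tpcn1, an endolysosomal cation channel, had 291, Slc29a1, a nucleoside transporter, 275, and Arrdc3, an arrestin family adaptor, 252. The remaining ones of the 15 strongest were 3 islands of Map3k1, Rnd3 with 233, and Kdm6b, a histone demethylase, with 225. Those of Rhof, Slc29a1, Arrdc3 and Rnd3 covered the outermost start.

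Of 17 lists of genes, 8 had a share of hosts whose interval lay above the 5.19% of all eligible genes, and 6 had a rate per Mb whose interval lay above 2.77. Lists were chosen with earlier results of these data known, and several genes are in 2 or more lists. Longer genes offer more bases, so shares and rates are both given and no difference was tested. The 6 lists whose rate had its whole interval above 2.77 were the Hedgehog, progenitor, differentiation, Notch, axon guidance and housekeeping lists. The rate also differed with length, at 4.84 per Mb for genes of 2 to 10 kb. The differentiation and housekeeping intervals included that value, and those of the Hedgehog, progenitor, Notch and axon guidance lists lay above it. These intervals treat islands as independent, also islands of the same gene.

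Hedgehog pathway genes had 6 hosts of 37 eligible (16.2%, 7.65 to 31.1) and 10.9 islands per Mb (5.94 to 18.2), with a median of 85 reads over the islands, against 72 for all. Of the 14 islands of this list, 5 lay in Ptch1 and 3 in Sufu, so the interval of the rate is too narrow. Ptch1 is described above. Gli1, the activating transcription factor of the pathway, had 1 island of 131 reads. Among the coreceptors for the ligand, Gas1 had 123 reads and Boc had islands of 100 and 107. Sufu, which holds Gli proteins inactive, had islands of 120, 59 and 81 reads, and Ccnd2, a cyclin induced by the pathway, had islands of 66 and 65. The ligand genes and the other members of the list were not hosts.

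Granule neuron progenitors are the lineage that gives rise to Hedgehog-driven medulloblastoma, and genes of that lineage had 9 hosts of 27 (33.3%, 18.6 to 52.2) at 47.8 islands per Mb (29.6 to 73.1), the highest rate among the lists. Of the 21 islands of this list, 7 lay in Nfix and 4 in Zic4, so the interval of the rate, which treats islands as independent, is too narrow. Its hosts Gli1, Boc and Ccnd2 are also hosts of the Hedgehog list. The eligible genes of this list were short, with a median length of 6.50 kb against 17623 bp over all eligible genes. Barhl1, a homeodomain factor, had an island of 201 reads over its outermost start and one of 74. Nfix and Zic4 are described above. Pax6, a paired-box factor, had an island of 132 reads at 18.5% of its length, over no listed start. Differentiation genes of the same lineage had 6 hosts of 26 (23.1%, lower limit 11.03) and 11.2 islands per Mb (4.11 to 24.4). Zbtb18, a zinc finger repressor, had 148 reads over an inner start. Neurod1 and Neurod6, basic helix-loop-helix factors, had 123 and 89 reads over the outermost start, and Cbln1, a secreted synapse organiser, had 79.

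BAF subunits and other chromatin regulators had 9 hosts of 58 (15.5%, 8.38 to 26.9). Their rate was 3.77 islands per Mb (1.72 to 7.15), which includes the 2.77 of all eligible interior. Kdm6b had 225 reads, Bcl11a 126, and Brd3, a reader of acetylated histones, and Tet3, an oxidase of methylcytosine, had 80 each. Brd3's island covered an inner start 32259 bp inside the gene. Among the subunits of the complex itself, Arid1a, named after its value was seen, had 78 reads at 34.6% of its length. Cell cycle genes had 4 hosts of 54 (7.41%) and 5.80 islands per Mb (1.88 to 13.5), with 79 reads at Mycl, 74 at Myc, 72 at Cdkn1a and 66 and 65 at Ccnd2.

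Signalling lists gave the following. Wnt genes had 5 hosts of 44 (11.4%, lower limit 4.95) and 3.71 islands per Mb (1.21 to 8.66), led by Axin2 with 138 reads and Nkd1, an inhibitor of the pathway, with 98. Notch genes had 6 hosts of 25 (24%, 11.5 to 43.4) and 12.3 islands per Mb (4.94 to 25.3). They were led by Mib1, a ubiquitin ligase that activates ligands, with 184 reads, Lfng, a glycosyltransferase that modifies Notch, with 156 over its outermost start, Dtx1 with 125, and Notch1, the receptor, with 72. TGF-beta and BMP genes had 2 hosts of 32 (6.25%) and 2.49 islands per Mb (0.513 to 7.26), where Tgif1, a homeodomain repressor, had 162 reads, and Smad7, an inhibitor of the pathway, had islands of 70 and 62. Insulin-like growth factor, PI3K and mTOR genes had 4 hosts of 28 (14.3%) and 4.22 islands per Mb (1.37 to 9.84). Pik3r3 held 86 reads, Pik3r1 77 and 68, Pik3r2 67 and Akt2 49.

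Axon guidance genes had 6 hosts of 30 (20%, 9.51 to 37.3) and 14.3 islands per Mb (6.53 to 27.1). Sema6c, a transmembrane semaphorin, had 145 reads over its outermost start, Sema4c 101, Sema4b 81, and Epha8, an ephrin receptor, 80. Ion channel subunits had 4 hosts of 24 (16.7%) and 6.60 islands per Mb (2.14 to 15.4), led by Kcnh2, a potassium channel, with 92. Housekeeping genes had 4 hosts of 40 (10%, 3.96 to 23.1) and 10.9 islands per Mb (2.98 to 28.0), a rate like that of the Hedgehog list. Their islands held 217 reads at Actb, 153 at Srsf3, 137 at Tubb5 and 98 at Ywhaz, and their median of 145 was the highest of the lists.

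Lists of markers of other cell types were short and had few hosts. The interval of each share included the 5.19% of all eligible genes, and the interval of each rate included 2.77 per Mb. Oligodendrocyte genes had 2 hosts of 18 (11.1%), Pdgfra with 80 and 82 reads and Cspg4 with 81, astrocyte and Bergmann glia genes had 1 of 19, Apoe with 91, and endothelial and mural genes had 1 of 16, which was Cspg4 again. Microglia and macrophage genes had 0 of 15, which allows a share of up to 20%, and liver and muscle genes had 0 of 34, which allows up to 8.82%. Both limits lie above the share over all genes. The rate was 9.44 islands per Mb (1.95 to 27.6) for oligodendrocyte genes, 3.10 (0.0784 to 17.2) for astrocyte and Bergmann glia genes and 1.73 (0.0439 to 9.66) for endothelial and mural genes. With no island, its upper limit was 19.97 per Mb for microglia and macrophage genes and 7.93 for liver and muscle genes.

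**Figure D4:**
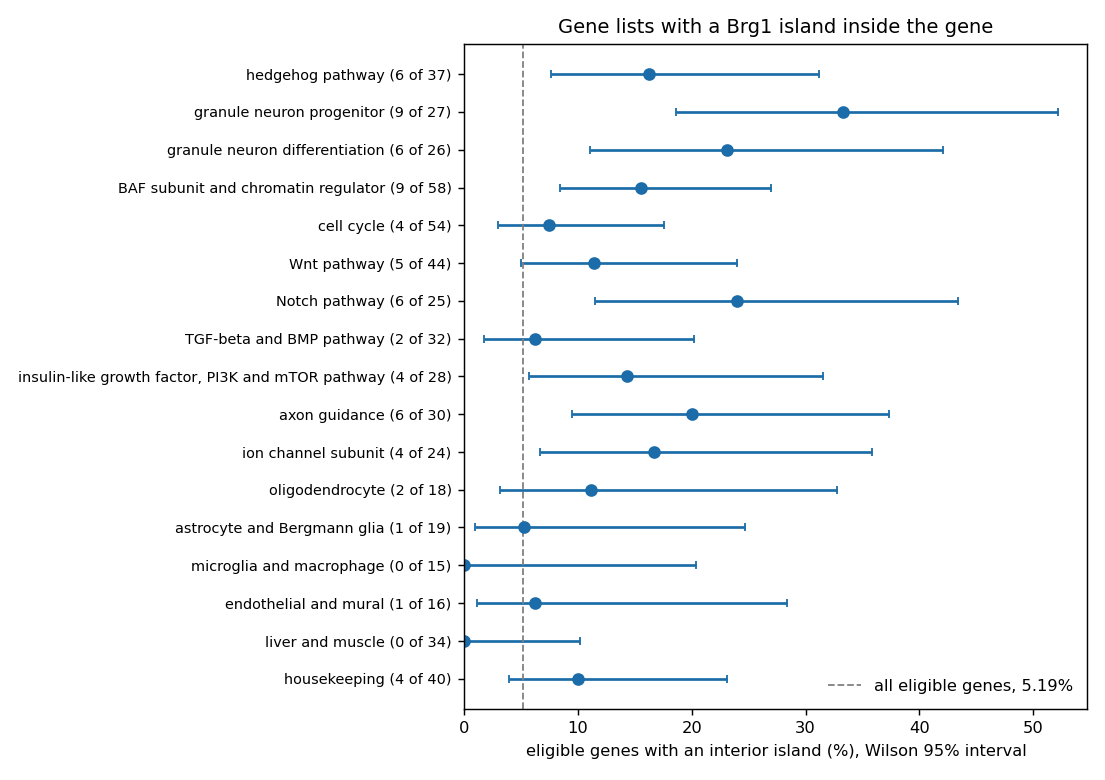
Share of eligible genes that hold an interior island, in percent with Wilson 95% intervals, for 17 gene lists, with the 5.19% of all eligible genes as a line. The share is 33.3% for granule neuron progenitor genes and 0% for microglia and for liver and muscle genes.

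Of 16 genes followed by name, 7 were hosts, all described above. Ccnd1, Mycn, Atoh1, Zic1 and Smarca4 itself were eligible and had no island that met the rule. Atoh1 is 2.121 kb long, so almost none of it could hold a midpoint over 1 kb from both ends. Islands at the ends of these genes fall outside the rule and are not given here. Gli2, Smarca2, Smarcc1 and Arid2 are 100 kb or longer and could not be hosts.

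The islands nearest the limits of the rule, on either side, had these values. Just under the length limit, Ube4b (99.7 kb) and Lcp1 (99.7 kb) had islands of 90 and 55 reads. Just over it, the gene a, which encodes agouti (100.4 kb), and Smurf2 (100.7 kb) had 76 and 59. Just over 1 kb from a gene end, islands in Rtn4 and Sec62, both with the midpoint 1002.5 bp from it, held 99 and 64 reads. Just within 1 kb, islands in Nudt3 (996.5 bp) and Ccdc66 (995.5 bp) held 100 and 66.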

How the data were processed

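The library was 1 Brg1 ChIP-seq library from mouse medulloblastoma. The authors' deposited list lists 5727 islands, giving for each its position and a whole-number count, taken here, from its values, as the reads in it, since the list has no header. It holds 472238 reads in all, and the depth of the whole library is not given in the sources used here. Per the submitters' processing notes, Bowtie 0.12.7, Picard 1.127 and SICER 1.1 were used and mm9 and mm10 are named, without role or order. Positions matched mm10 and are given 1-based on GRCm38. Widths were multiples of 200 bp except for 3 islands. An input file was not used here.

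Islands were placed against RefSeq genes of GRCm38.p6 with Python 3.11.15, numpy 2.4.6, pandas 2.3.3 and scipy 1.17.1, and drawn with matplotlib 3.10.9. Strand and listed starts came from RefSeq windows of 300 bases, 250 before and 50 after each start (32851 windows, 17492 genes), and genes without such a window were not positioned. Exons, introns and repeats were not analysed. Eligible genes had at least 1 base of interior that met the rule. Shares have Wilson and rates exact Poisson 95% intervals. A count of 0 is given with 3 counts as its limit. No p-value was made, since there is 1 ChIP library and islands are not replicates. The code was tested on simulated data. Members and lists were chosen with earlier results of these data known. Named genes were the 15 strongest islands, the 5 hosts with most islands, up to 4 hosts per list by reads, the 3 widest islands, those nearest the limits of the rule and 16 genes fixed by name; the genes of the printed sequences and those with multiple islands beyond the 5 were chosen later.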

Additional observations from a re-analysis of the deposited data

How the results depend on the processing

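Each of 10 results was recomputed under 12 settings, the last 2 of them chosen after seeing the data, and 67 of 120 values stayed close to the reported ones. A count was called close within 1.5 times the reported one, and any other value within its 95% interval. All 10 were close when lncRNA gene ends were ignored, without high-density islands, with 1 host only and without X. The reported values are 1039 islands, 862 hosts, a host share of 5.19%, 72 reads, 2400 bp, 6.18 reads per 200 bp, 2.77 islands per Mb, 60.1% on the start side, 37.4% with a neighbour and 9.51% of hosts with an own-end island.

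At 2 kb from gene ends there were 800 islands and 655 hosts, the host share was 4.39%, the reads 70.5, the rate 2.36 per Mb, the start side 54.0%, the neighbours 41% and the own-end share 11.9%. At 5 kb there were 563 islands and 462 hosts (4.16%), 69 reads, 2200 bp, 2.21 per Mb, 50.9% on the start side, 41.6% with neighbours and 12.6% with an own-end island. With the limit at 50 kb there were 593 islands and 527 hosts (3.77%), 64.7% on the start side. For islands with at least 68 reads there were 593 islands, 520 hosts (3.13%), 90 reads, 3200 bp, 5.92 reads per 200 bp, 1.58 per Mb, 64.9% on the start side, 25.8% with neighbours and 5% with an own-end island. For islands with at least 86 reads there were 328 islands, 293 hosts (1.77%), 107 reads, 3600 bp, 6 reads per 200 bp, 0.873 per Mb, 68.2% on the start side, 20.1% with neighbours and 2.39% with an own-end island. With the whole island inside and over 1 kb from every protein-coding gene end, there were 785 islands and 637 hosts. The host share was then 3.84%, the reads 68, the width 2200 bp, the rate 2.09 per Mb and the start side 52.8%. Without islands over the outermost start, the host share was 4.72%, the reads 70, the rate 2.53 per Mb and the start side 55.4%. Islands with no known strand or with 2 hosts were kept there, also where they reached over a gene edge. Without islands over any listed start there were 799 islands and 656 hosts, the host share was 3.95%, the reads 69, the width 2200 bp, the rate 2.13 per Mb and the start side 48.5%. Islands in genes with no listed start were kept in this setting.

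The start-side share lay between 48.5% and 68.2%. It was lower without islands over a start, which by construction removes islands near the start, and with a larger distance from gene ends, and higher under both read thresholds and the 50 kb limit, where the cause was not tested. Stricter sets hold fewer islands by construction. No paired analysis was possible because there is 1 ChIP library and no replicate. The shallowest results are lists of few genes and the X chromosome, where counting intervals are wide.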

Other observations

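Small RNA genes lay inside some of these islands. 9 miRNA genes were in 8 islands, 7 snoRNA genes in 3 and 3 tRNA genes in 2. Among the miRNA hosts, Ppp1r10 had the strongest island with 224 reads and holds Mir1894, Srf had 146 reads with Mir6976, and Aatk had 133 with Mir338 and Mir3065. The island of Rpl4 with 130 reads held 5 of the snoRNA genes. 34 islands had a midpoint inside a lncRNA gene. The numbers of small RNA genes and lncRNA genes in the whole eligible interior are not given here. Whether islands held more of them than their part of the bases was therefore not tested. 28 islands lay on chromosome 18, where strand was not used.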
